A study of Homo sapiens with 6 samples.

Results

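Replication-dependent histone genes are the clustered H1, H2A, H2B, H3 and H4 genes that supply histones to newly made DNA. They were taken by their names, as rows of the deposited expression table whose symbol is H1-1 to H1-6 or begins with H2AC, H2BC, H3C or H4C followed by a number. That gave 66 of the 60612 genes in the table: 6 for the linker histone H1, 16 for H2A, 17 for H2B, 13 for H3 and 14 for H4. Names alone decided, and whether each gene serves replication in these cells was not tested. RNA-seq had been done on HCT116, an established human colorectal cancer line with epithelial features, in a study of PLOD3 in colorectal cancer. There were 3 samples treated with PLOD3 siRNA and 3 treated with si NC, the control siRNA, each for 2 days, so both groups had received an siRNA. The labels do not give the siRNA sequences or how many siRNAs were used, and all samples were of this cell line. They do not say whether replicates were separate cultures, so p-values cover only the scatter among these 6 libraries, which could be technical.

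These genes lie in clusters, lack introns as a rule, and are transcribed mainly in S phase under NPAT, a cofactor that binds at histone gene clusters. Their mRNA classically ends not in a poly(A) tail but in a short stem-loop, which the stem-loop binding protein SLBP holds while a complex built on the U7 small nuclear RNA cuts the transcript just downstream. Some of the genes also have a polyadenylation signal further downstream and can give a transcript with a tail. The replication-independent histone genes, such as H2AZ1 and H3-3B, are scattered, have introns and give polyadenylated mRNA throughout the cell cycle.

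The 3′ elements are shown first because the class is defined by them and because the libraries, as described further on, differed in RNAs that lack a poly(A) tail. Of the 66 genes, 64 had transcripts in the GENCODE annotation of GRCh38, and 27 of them held the 16-base stem-loop, searched on the transcript strand as GGNNCT, any 4 bases and AGNNCC with every stem position paired, against 0.510% of 58676 annotated genes. A polyadenylation signal (AATAAA or ATTAAA within the last 60 bases, transcript strand) was found in 22 of the 64, against 45.6% of annotated genes, and 20 had both elements. Many annotated histone transcripts stop at or near the stop codon, so a missing match says only that the letters are not in these sequences. The stem-loops of 5 members that the results turn on are given 5′ to 3′, with the 16 bases of the element in capitals.
H2BC5: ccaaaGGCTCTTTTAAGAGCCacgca
H2AC6: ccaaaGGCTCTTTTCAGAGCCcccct
H3C6: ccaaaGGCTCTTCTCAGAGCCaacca
H3C10: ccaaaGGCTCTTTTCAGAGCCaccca
H4C9: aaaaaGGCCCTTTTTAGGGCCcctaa
In H3C6 the stem-loop is in a transcript of 462 bases, and a second transcript of 2679 bases ends with a polyadenylation signal. The last 30 bases of such longer transcripts are shown for the same reason, with the signal in capitals.
H2BC5: taattAATAAAatctgcggagaattgtaaa
H2AC6: tAATAAAaggtaatgcaaagggagaggaaa
H3C6: agatgtaaAATAAAagattactgaacagaa
H3C10: atgactaAATAAAatctgtataatccccac
For H4C9, H2BC12, H1-2 and H2AC17 no signal was found in the annotated transcripts.

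Estimated counts summed to 55416555 to 71736017 per library in PLOD3 siRNA and 57457602 to 76802428 in si NC, and low values piled up at multiples of 4, so about 4 units stand for a read pair. Levels are given in FPKM, which divides a gene's fragments by its length and by the size of the library. PLOD3 itself was at 3.44, 3.40 and 4.05 FPKM in PLOD3 siRNA, against 6.40, 7.16 and 6.22 in si NC (log2 fold change -0.85, edgeR quasi-likelihood test, adjusted p = 0.0035). After a correction that removes each library's trend with the GC content of genes it stood at -0.54 on the log2 scale, or at -0.53 after one for GC content and length, and was called in both. Of 10 colon epithelial markers, 7 were at 1 FPKM or more, EPCAM, KRT8 and CDH1 among them, while VIL1 and LGR5 were under 0.1 FPKM and CDX1 had no reads. Markers of other cell types were low: 5 of 8 fibroblast, 4 of 6 leukocyte and 4 of 4 endothelial markers were under 0.1 FPKM, with PTPRC, CD3E, DCN, LUM and CDH5 at 0 reads. The summed epithelial markers were at 563 to 639 FPKM in PLOD3 siRNA and 668 to 722 in si NC, and the fibroblast markers at 3.55 to 4.01 FPKM in PLOD3 siRNA and 5.09 to 5.89 in si NC. The summed leukocyte markers were at 1.68 to 1.74 FPKM in PLOD3 siRNA and 0.902 to 1.69 in si NC, and the endothelial markers at 0.0796 to 0.119 in PLOD3 siRNA and 0.0786 to 0.221 in si NC. Their part in the results on histone genes was not tested.

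Most histone genes of this class were at low levels in the libraries. These are levels in the libraries, and how fully RNA without a poly(A) tail was captured was not tested. A mean of at least 1 FPKM over the 6 libraries, the minimum used for testing, was reached by 11 of the 66: 1 H1, 4 H2A, 2 H2B, 1 H3 and 3 H4 gene. Another 13 had no reads in any library, and 33 had reads in all 6. The summed level of all 66 was 94.1, 104.8 and 86.8 FPKM in PLOD3 siRNA, against 92.8, 74.0 and 87.1 in si NC. The groups overlapped. The same libraries held 702, 726 and 740 FPKM of replication-independent histone mRNA in PLOD3 siRNA and 599, 624 and 594 in si NC, with no overlap, and the 66 genes made up 10.5% to 13.4% of histone FPKM in any library. In bulk RNA, a change in the share of cells in S phase and a change in histone mRNA per cell cannot be told apart.

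The level was uneven among the members. H2BC12 and H1-2 alone held 55.6% to 62.1% of the members' FPKM in a library. By type, over the 6 libraries, H2B genes held 51.5%, H1 genes 20.2%, H2A genes 16.3%, H4 genes 7.94% and H3 genes 4.16%. H2BC12 made up 74.5% of the H2B level and H1-2 made up 97.3% of the H1 level, whereas the highest H2A, H3 and H4 members, H2AC6, H3C6 and H4C12, each held 30.5%, 33.7% and 26.4% of their type. In nucleosomes the core histones are present in equal amounts, so these shares of library RNA are not shares of histone protein. Of the 22 members with a polyadenylation signal in the annotation, 6 reached 1 FPKM and the median level was 0.521 FPKM, while of the 42 without a match 5 reached it and the median was 0.106 FPKM. The 2 highest members, H2BC12 and H1-2, were among those without a match, whose annotated ends are often incomplete.

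**Figure D1:**
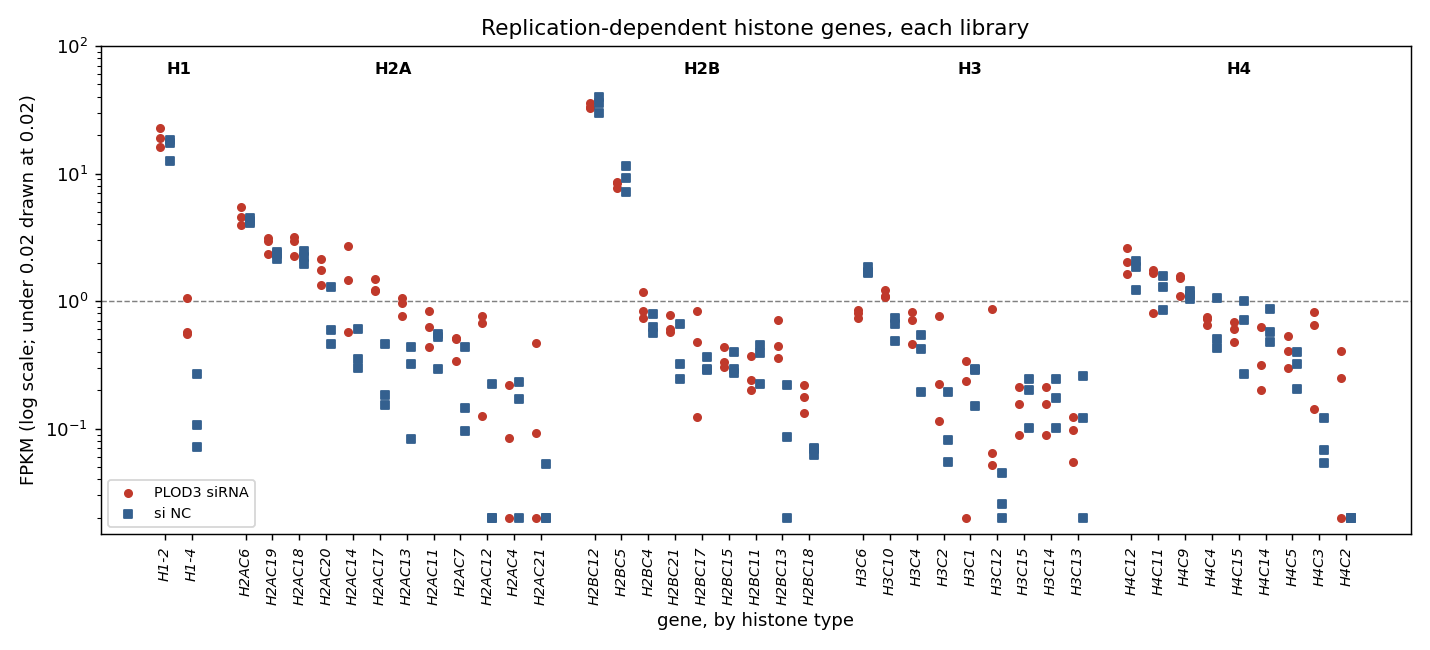
FPKM (log scale) in each library for the 41 members with a mean of at least 0.1 FPKM, ordered by histone type and mean level. Red circles are the 3 PLOD3 siRNA libraries and blue squares the 3 si NC libraries, the dashed line is at 1 FPKM, and values under 0.02 are drawn at 0.02. H2BC12 and H1-2 stand above all other members, the groups overlap for most genes, and H3C6 is lower in every PLOD3 siRNA library.

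The clusters differed in how many members had reads. The first cluster on chromosome 6 (chr6:25726063-26285638, GRCh38) has 34 members, of which 4 reached 1 FPKM and 9 had no reads. The second (chr6:27125897-27893891) has 21, of which 4 reached 1 FPKM and 4 had no reads. The cluster on chromosome 1 (chr1:149782689-149887965) has 11, of which 3 reached 1 FPKM and 0 lacked reads. Its summed level was 10.4, 9.78 and 9.02 FPKM in PLOD3 siRNA, against 8.27, 7.76 and 6.67 in si NC. The groups did not overlap there, whereas they overlapped in both clusters on chromosome 6. The chromosome 1 sum holds near-identical copies, so the same reads may enter it more than once. H2AC18 and H2AC19, and H3C14 and H3C15, share 100% of the 75-base stretches of the shorter, and H4C14 and H4C15 share 97.1%.

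Of the 11 members tested, 0 were called higher in PLOD3 siRNA and 1, H3C6, was called lower (edgeR quasi-likelihood test, Benjamini-Hochberg adjusted over 12000 genes, threshold 0.05). Over all genes tested 35.5% were called, 16.2% higher and 19.3% lower, so the members' share of calls was no higher than that of the table. At an unadjusted p under 0.05 there were 2 members, H3C6 and H2AC20, against 47.1% of all genes tested. DESeq2 on the same genes also called 0 members higher and H3C6 lower. The median log2 fold change was 0.27, against 0.00337 for all genes tested, with 8 members positive and 3 negative. The 8 include H2AC18 with H2AC19 and H4C11 with H4C12, near-identical copies counted separately. The tested members have a median GC content of 61.2%, against 49.1% for all genes tested, and their median became 0.48 after the GC correction and 0.22 after the correction for GC content and length. Leaving out PLOD3 siRNA replicate 2 or si NC replicate 3 made it 0.11 in either case. Groups did not overlap for 1 member on the higher side (H2AC20) and 1 on the lower (H3C6), against 52.1% of all genes (24.6% higher, 27.5% lower). With values rescaled to TPM, limma called 2471 genes of the table higher and 1460 lower, against 1945 and 2319, and among members H2AC20 higher and H3C6 lower.

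H3C6, which encodes a core histone H3, fell. This gene (ENSG00000274750, chr6:26224199-26227473, plus strand) had 0.851, 0.802 and 0.733 FPKM in PLOD3 siRNA, against 1.84, 1.65 and 1.68 in si NC. Every PLOD3 siRNA library was below every si NC library, and the spread within a group was small beside the distance. The means were 0.795 ± 0.0594 and 1.72 ± 0.101 FPKM (SD, n = 3 each), which is -1.10 on the log2 scale (SE 0.135) at an edgeR adjusted p of 0.00334. The estimated counts behind it were 194, 142 and 128 in PLOD3 siRNA and 328, 340 and 404 in si NC. It was called in all 22 alternatives that tested it, the 6 that left out a library among them, with a log2 fold change of -1.24 to -0.55. The gene length behind its FPKM, worked out from the ratio of count to FPKM, was 2680 to 2706 bases in the 6 libraries, close to the 2679 bases of the longer transcript shown above with the polyadenylation signal. Over 7068 genes with estimated counts over 1000 in every library, this length varied by at most 0.281% (coefficient of variation over the libraries), so the table uses a fixed length per gene and does not say how reads were divided between the short and the long transcript.

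No other H3 gene reached the minimum. H3C10 was at 1.10, 1.23 and 1.07 FPKM in PLOD3 siRNA, against 0.660, 0.734 and 0.488 in si NC, with no overlap, in the direction opposite to H3C6. H3C4 was at 0.705, 0.457 and 0.821 FPKM in PLOD3 siRNA, against 0.543, 0.195 and 0.418 in si NC, and the groups overlapped. H3C2 was at 0.768, 0.224 and 0.114 FPKM in PLOD3 siRNA, against 0.0553, 0.192 and 0.0816 in si NC, and here too they overlapped. Summed over the 13 H3 genes, the level was 4.19, 4.23 and 3.22 FPKM in PLOD3 siRNA and 3.9998, 3.29 and 3.49 in si NC, so the summed groups overlapped while H3C6 and H3C10 stood on opposite sides.

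Among H1 genes, which encode the linker histones that bind DNA between nucleosomes, only H1-2 was tested. H1-2 (ENSG00000187837, chr6:26055740-26056470, minus strand) had 19.2, 22.5 and 16.05 FPKM in PLOD3 siRNA, against 17.3, 12.6 and 18.4 in si NC. The groups overlapped, and the log2 fold change of 0.27 (SE 0.194) did not pass (edgeR adjusted p = 0.312), nor did the 0.48 after the GC correction (edgeR adjusted p = 0.14). H1-4 was at 0.571, 1.07 and 0.553 FPKM in PLOD3 siRNA, against 0.0718, 0.269 and 0.107 in si NC, with no overlap. H1-1 and H1-5 had no reads in any library, and H1-3 and H1-6 had reads in 2 libraries each.

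H2A genes encode the core histone that pairs with H2B. The highest, H2AC6 (ENSG00000180573, chr6:26124145-26139116, plus strand), had 3.91, 5.46 and 4.595 FPKM in PLOD3 siRNA, against 4.22, 4.51 and 4.09 in si NC (log2 0.13, SE 0.164, edgeR adjusted p = 0.56). The PLOD3 siRNA libraries lay on both sides of the si NC libraries. H2AC19 had 3.14, 2.97 and 2.33 FPKM in PLOD3 siRNA, against 2.42, 2.32 and 2.15 in si NC (log2 0.30, edgeR adjusted p = 0.256). H2AC18 had 3.18, 2.98 and 2.26 FPKM in PLOD3 siRNA, against 2.48, 1.94 and 2.23 in si NC (log2 0.35, edgeR adjusted p = 0.231). These last genes share 100% of the 75-base stretches of the shorter transcript, so reads cannot be assigned to either and the pair is best read as a single measurement. After the GC correction H2AC19 stood at 0.62 and H2AC18 at 0.66 on the log2 scale, and neither was called (edgeR adjusted p = 0.0588 and 0.0756).

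H2AC20 (ENSG00000184260, chr1:149886918-149887411, plus strand) showed the largest difference among the tested H2A genes without passing. It had 2.14, 1.34 and 1.76 FPKM in PLOD3 siRNA, against 0.457, 1.29 and 0.595 in si NC. The groups did not overlap, but si NC replicate 2 came close to PLOD3 siRNA replicate 2. The log2 difference was 1.14 (SE 0.418), short of the threshold (edgeR adjusted p = 0.0757), and it was called in 6 of 22 alternatives, the 4 limma fits on FPKM or TPM, the GC correction and the fit without si NC replicate 2 (adjusted p = 0.0195). Over all 22 its adjusted p was 0.0195 to 0.19. Summed over all 16 H2A genes, the level was 18.2, 19.6 and 15.7 FPKM in PLOD3 siRNA, against 11.6, 11.9 and 10.8 in si NC. This was the type whose summed groups did not overlap, with 17.8 ± 2.01 and 11.4 ± 0.572 FPKM (SD, n = 3 each). The near-identical H2AC18 and H2AC19 both enter this sum.

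H2B genes held the most FPKM, and the fold changes of the tested ones were near 0. H2BC12 (ENSG00000197903, chr6:27146361-27146855, minus strand) had 33.2, 35.9 and 32.6 FPKM in PLOD3 siRNA, against 39.5, 29.9 and 35.8 in si NC. The log2 difference was -0.04 (SE 0.120; edgeR adjusted p = 0.825), and the PLOD3 siRNA libraries lay within the range of si NC. H2BC5 (ENSG00000158373, chr6:26158146-26171349, plus strand) had 7.64, 8.57 and 8.48 FPKM in PLOD3 siRNA, against 9.23, 7.22 and 11.4 in si NC (log2 -0.17, edgeR adjusted p = 0.501). Next in level, below the minimum, were H2BC4 and H2BC21. H2BC4 had 0.739, 1.18 and 0.838 FPKM in PLOD3 siRNA, against 0.792, 0.560 and 0.622 in si NC. H2BC21 had 0.576, 0.603 and 0.784 FPKM in PLOD3 siRNA, against 0.321, 0.657 and 0.246 in si NC. Both overlapped between groups. The sum over the 17 H2B genes was 44.7, 48.6 and 44.0 FPKM in PLOD3 siRNA and 51.6, 39.4 and 49.5 in si NC.

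H4 genes encode the core histone that pairs with H3. H4C12 had 2.58, 2.01 and 1.62 FPKM in PLOD3 siRNA, against 2.05, 1.83 and 1.23 in si NC (log2 0.29, edgeR adjusted p = 0.462), and after the GC correction its log2 difference of 0.65 did not pass (edgeR adjusted p = 0.144). H4C11, which shares 100% of the 75-base stretches of the shorter transcript with H4C12, had 0.800, 1.74 and 1.67 FPKM in PLOD3 siRNA, against 1.57, 1.301 and 0.847 in si NC (log2 0.19, edgeR adjusted p = 0.733; 0.51 and 0.366 after the GC correction). In PLOD3 siRNA replicate 1 H4C12 was at its highest and H4C11 at its lowest, so how reads were split between the copies is uncertain there. H4C9 (ENSG00000276180, chr6:27138588-27139881, plus strand) had 1.53, 1.57 and 1.11 FPKM in PLOD3 siRNA, against 1.20, 1.12 and 1.05 in si NC (log2 0.33, edgeR adjusted p = 0.245). Below the minimum, H4C4 had 0.655, 0.756 and 0.724 FPKM in PLOD3 siRNA, against 1.05, 0.426 and 0.506 in si NC. All of these overlapped between groups, as did the sum over the 14 H4 genes, at 7.22, 8.75 and 7.35 FPKM in PLOD3 siRNA and 8.15, 6.50 and 4.86 in si NC.

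Many H2A and H2B genes lie back to back, start close together and are transcribed away from each other. In the table there were 10 such pairs, with 214 to 291 bases between their starts, and the levels of partners differed widely. H2AC6 was at a mean of 4.46 FPKM and its partner H2BC4 at 0.788. In H2AC12 and H2BC12, whose starts are 250 bases apart, the order was the other way: H2AC12 had 0.670, 0.126 and 0.761 FPKM in PLOD3 siRNA, against no reads in si NC replicates 1 and 2 and 0.225 in si NC replicate 3, while H2BC12 was at a mean of 34.5 FPKM. In 9 pairs at least one partner had reads, and in 8 of these the H2A gene had the higher mean FPKM, H2AC12 and H2BC12 being the exception. FPKM divides by gene length, and in estimated counts over all libraries H2BC21 had 513 against 283 for its partner H2AC20. H2AC8 and H2BC8 had totals of only 5 and 4.

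**Figure D2:**
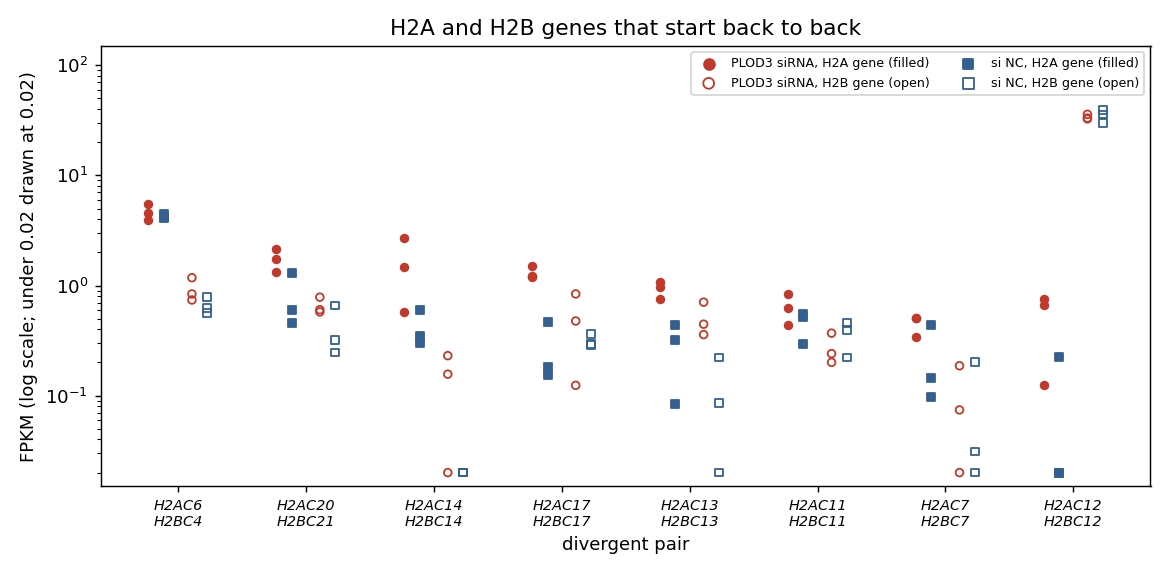
FPKM (log scale) of 8 divergent H2A and H2B pairs in each library, with H2A genes filled and H2B genes open. Red circles are PLOD3 siRNA, blue squares si NC, and values under 0.02 are drawn at 0.02. The H2A gene has the higher mean in each pair except H2AC12 and H2BC12.

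The sequence between the starts of H2BC12 and H2AC12 is shown because the highest member of the class and one of the low ones are transcribed from its ends. It is taken from RefSeq promoters (GRCh38.p14) as the 250 bases before the start of H2BC12 (chr6:27146859-27147108, minus strand), and H2AC12 begins near its far end. Capitals mark the octamer ATTTGCAT, CCAAT and TATAAA on either strand.
H2BC12 promoter: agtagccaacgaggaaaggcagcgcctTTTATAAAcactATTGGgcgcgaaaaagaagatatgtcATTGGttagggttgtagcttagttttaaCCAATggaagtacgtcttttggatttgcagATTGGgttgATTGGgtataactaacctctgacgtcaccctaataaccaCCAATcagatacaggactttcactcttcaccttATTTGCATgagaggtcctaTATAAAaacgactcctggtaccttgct
The octamer begins 46 bases before the H2BC12 start and a TATAAA 27 bases before it, and a TTTATA with an overlapping TATAAA lies near the other end, towards H2AC12. Promoters of 61 members were found in RefSeq, each from 250 bases before to 50 after the start. The octamer, searched on both strands, was in 11 of 15 H2A, 14 of 17 H2B, 1 of 11 H3, 0 of 6 H1 and 0 of 12 H4 promoters, against 1.77% of 35116 promoters of the same length. CCAAT was in 6 of 6 H1, 15 of 15 H2A, 17 of 17 H2B and 11 of 11 H3 promoters. It was in 3 of 12 H4 promoters, against 34.6% of all promoters. TATAAA was in 3 of 6 H1, 12 of 15 H2A and 12 of 17 H2B promoters. It was in 9 of 11 H3 and 6 of 12 H4 promoters, against 11.5% of all promoters. Promoters of a back-to-back pair overlap, so the H2A and H2B counts are not independent. A match describes the letters and is not evidence of binding.

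In summed FPKM, the 55 members under 1 FPKM differed between the groups more than the 11 above it. Their summed level was 16.03, 18.9 and 13.6 FPKM in PLOD3 siRNA, against 10.5, 8.24 and 7.73 in si NC, and the groups did not overlap. The ratio of means was 1.83. In such a sum a read of a short gene weighs more than a read of a long one. Near-identical copies are also summed separately, such as H3C14 and H3C15, which share 100% of the 75-base stretches of the shorter. The ratio is therefore one of FPKM and not of reads. The 11 members above the minimum summed to 78.1, 85.9 and 73.2 FPKM in PLOD3 siRNA and 82.3, 65.7 and 79.4 in si NC, a ratio of 1.04. The estimated counts behind the 55 were 1380, 1224 and 928 in PLOD3 siRNA and 860, 880 and 943 in si NC, and 35, 31 and 30 of them had reads in PLOD3 siRNA libraries, against 34, 28 and 33 in si NC. The highest 5 of the 55 were H2AC14, H3C10, H2BC4, H2AC17 and H4C4, with means of 0.997, 0.881, 0.788, 0.787 and 0.686 FPKM. H2AC14 sat just under the minimum, with 1.46, 2.70 and 0.569 FPKM in PLOD3 siRNA, against 0.299, 0.602 and 0.351 in si NC, and H4C9 and H3C6 sat just above it with means of 1.26 FPKM.

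At a minimum of 0.1 FPKM, 41 members and 19840 genes were tested, and 4 members were called higher and 1, H3C6, lower. Over all genes at that minimum 21.9% were called, 9.44% higher and 12.4% lower, so the share of members called higher was near the background. The median log2 fold change of the 41 was 0.44, against 0.010 for all genes tested, with 30 positive and 11 negative. Groups did not overlap for 9 members on the higher side and 1 on the lower, against 19.1% and 22.6% of all genes. By type, the higher calls were 1 of 2 H1, 1 of 12 H2A, 1 of 9 H2B, 1 of 9 H3 and 0 of 9 H4 genes tested. These members are named because they make up a count of 5 or fewer, after their values were seen.

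H2AC17 (ENSG00000278677, chr6:27892699-27893185, minus strand) had 1.22, 1.499 and 1.21 FPKM in PLOD3 siRNA, against 0.464, 0.153 and 0.183 in si NC (log2 2.27, SE 0.506, edgeR adjusted p = 0.0229). It overlaps H3C12 on the same strand and shares 85.3% of the 75-base stretches of the shorter with it, so its reads are uncertain. H1-4 (ENSG00000168298, chr6:26156329-26157115, plus strand), a linker histone gene, had estimated counts of 39, 55 and 29 in PLOD3 siRNA and 4, 17 and 8 in si NC (log2 2.23, SE 0.606, edgeR adjusted p = 0.0424). H2BC18, an H2B gene on chromosome 1, had 0.132, 0.176 and 0.218 FPKM in PLOD3 siRNA, against 0.0619, 0.0687 and 0.0710 in si NC (log2 1.33, SE 0.352, edgeR adjusted p = 0.0389). H3C10, whose values are given above, stood at 0.87 on the log2 scale (SE 0.250; edgeR adjusted p = 0.0498). In all 4 the groups did not overlap.

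These 4 calls rest on few reads. Their estimated counts over all libraries were 152 for H1-4, 167 for H2AC17, 172 for H2BC18 and 481 for H3C10. Most of the calls were lost when a library was left out. At the minimum of 1 FPKM, calls over all genes also fell then, so the loss is not shown to be particular to these members. With a library left out in turn, H1-4 kept its call in 1 of 6 fits, H2AC17 in 2, and H2BC18 and H3C10 in 0, and the number of members called higher was 0 to 3. It was 0 without PLOD3 siRNA replicate 2 or si NC replicate 3, 1 without PLOD3 siRNA replicate 1 or si NC replicate 1, 2 without PLOD3 siRNA replicate 3, and 3 without si NC replicate 2. H3C6 kept its lower call in 6 of 6.

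**Figure D3:**
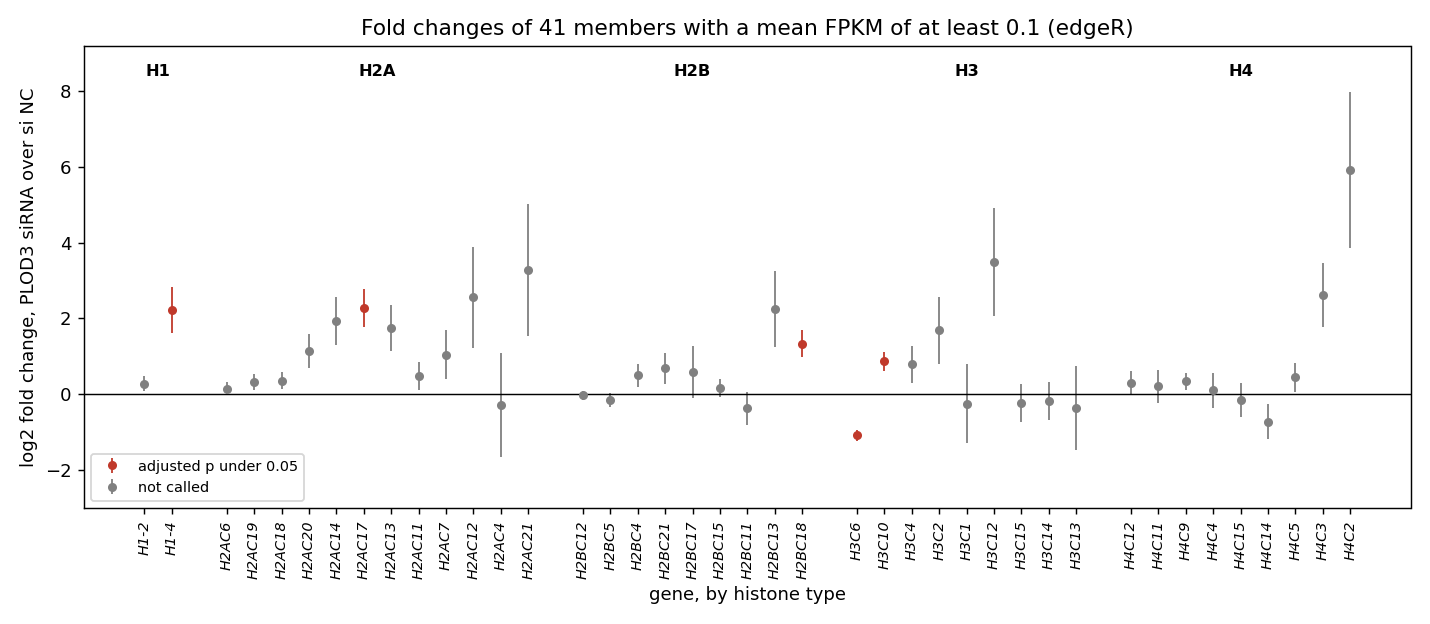
Log2 fold change of PLOD3 siRNA over si NC for 41 members with a mean of at least 0.1 FPKM, by histone type and mean level (edgeR, bars are standard errors). Red points had an adjusted p under 0.05 and grey points did not. H3C6 is the called gene below 0, and H1-4, H2AC17, H2BC18 and H3C10 are called above it, with errors that widen towards the low members on the right of each type.

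Other RNAs without a poly(A) tail were higher in the same libraries as the low members, by far more. Of 22 such RNAs listed, 7 reached 1 FPKM, and 6 of these were called higher and 0 lower, with a median log2 fold change of 4.25, against 0.00337 for all genes tested. Without MALAT1 and NEAT1 the list summed to 217, 232 and 182 FPKM in PLOD3 siRNA, against 8.56, 7.24 and 8.70 in si NC. RN7SK, a small nuclear RNA that holds back transcription elongation, had 15.4, 15.8 and 13.5 FPKM in PLOD3 siRNA, against 0.856, 1.18 and 1.38 in si NC (log2 3.69, edgeR adjusted p = 0.00107). RMRP, the RNA of RNase MRP (ENSG00000277027), rose by 3.86 on the log2 scale (edgeR adjusted p = 0.00242), and RN7SL2, RN7SL1, RN7SL3 and RPPH1 were also among the 6. The RN7SL genes are related copies for 7SL RNA, so the calls are not for 6 separate RNAs. MALAT1, whose 3′ end is protected by a triple helix, had 24.2, 16.9 and 21.2 FPKM in PLOD3 siRNA, against 16.5, 6.06 and 9.27 in si NC, and did not pass (edgeR adjusted p = 0.0628). RNU7-1, the U7 RNA that guides cutting of histone transcripts, was under the minimum, with 0.0334, 0.461 and 0.461 FPKM in PLOD3 siRNA and 0.0210, 0.0167 and 0.626 in si NC, and the groups overlapped. The labels describe removal of ribosomal RNA, which in principle leaves RNA without a tail in the library, but how fully it did so here was not tested. The part of this difference between libraries in the histone values was not tested.

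**Figure D4:**
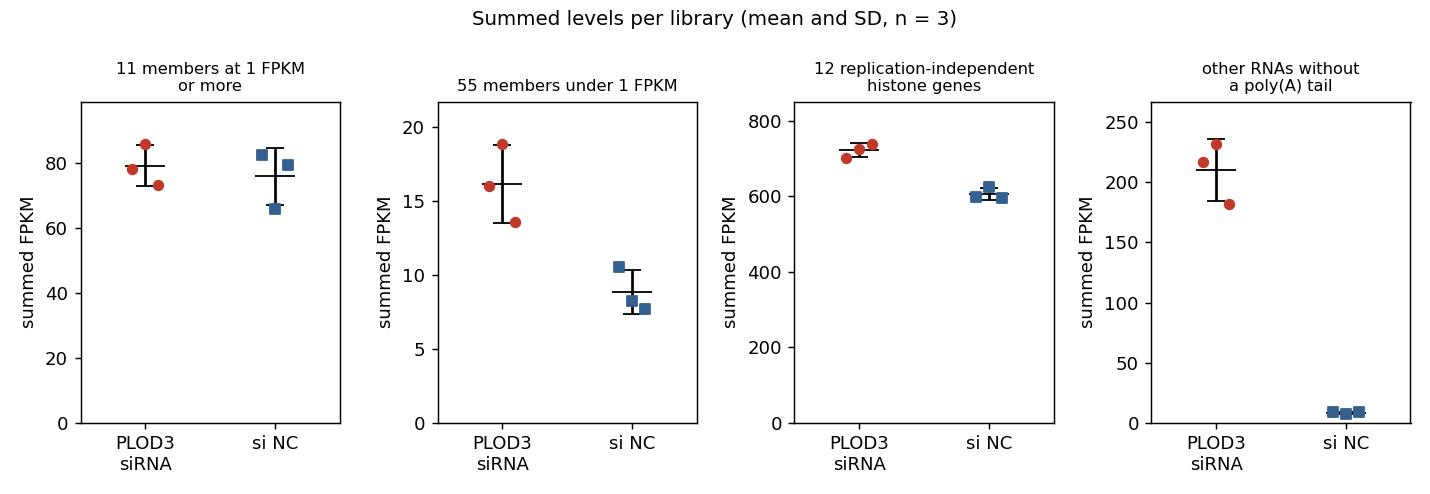
Summed FPKM in each library for the 11 members at 1 FPKM or more, the 55 members below it, 12 replication-independent histone genes, and other RNAs without a poly(A) tail (MALAT1 and NEAT1 left out). Red circles are PLOD3 siRNA, blue squares si NC, and black marks are the mean and SD (n = 3). The groups overlap in the first panel only, and the gap is widest in the last, at 182 to 232 against 7.24 to 8.70 FPKM.

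Replication-independent histone genes were all above the minimum. Of 12 tested, 1 was called higher and 0 lower, with a median log2 fold change of 0.099, against 0.00337 for all genes tested. Calls over all genes tested were 16.2% higher and 19.3% lower. H2AZ1, which encodes the variant H2A.Z found at promoters, had 230, 265 and 223 FPKM in PLOD3 siRNA, against 153, 134 and 174 in si NC (log2 0.65, edgeR adjusted p = 0.0117; log2 0.39 after the correction for GC content and length, also called). No overlap was seen, and in FPKM this gene alone was above all 66 replication-dependent genes together in every library. H3-3B, a gene for the variant H3.3, had 74.8, 77.8 and 113 FPKM in PLOD3 siRNA, against 81.0, 59.3 and 56.0 in si NC, and the groups overlapped (edgeR adjusted p = 0.12). H3-3A, the other gene for H3.3, averaged 35.9 ± 1.87 FPKM in PLOD3 siRNA and 35.4 ± 6.47 in si NC (SD, n = 3 each, edgeR adjusted p = 0.904). H2AX, whose protein is phosphorylated at DNA breaks and whose mRNA can also end in a stem-loop, averaged 61.6 ± 1.02 FPKM in PLOD3 siRNA and 70.1 ± 12.5 in si NC (SD, n = 3 each, edgeR adjusted p = 0.341). H2AW, a gene of the replication-dependent class whose name falls outside the rule, had 8.13, 10.7 and 7.48 FPKM in PLOD3 siRNA, against 9.72, 9.73 and 7.69 in si NC, with overlap (edgeR adjusted p = 0.907).

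Genes that act on histone transcripts were called in both directions. Of 18 tested genes of histone mRNA 3′ end processing and fate, 8 were called higher and 2 lower, with a median log2 fold change of 0.31, against 0.00337 for all genes tested. The shares called over all genes tested were 16.2% higher and 19.3% lower. ZNF473, a component of the U7 machinery, rose to 4.65, 4.15 and 4.54 FPKM in PLOD3 siRNA, against 2.73, 2.86 and 2.79 in si NC (log2 0.67, edgeR adjusted p = 0.00302). NCBP1, the larger cap-binding subunit, rose by 0.40 on the log2 scale, COIL, the scaffold of Cajal bodies, by 0.60, and CPSF2, a cleavage factor subunit, by 0.31. After the GC correction NCBP1 (log2 0.19, edgeR adjusted p = 0.0562) and CPSF2 (log2 0.036, edgeR adjusted p = 0.71) were not called. SLBP had 58.1, 58.9 and 55.5 FPKM in PLOD3 siRNA, against 48.8, 41.4 and 46.4 in si NC (log2 0.34, edgeR adjusted p = 0.0187). Its call was lost without PLOD3 siRNA replicate 1 or si NC replicate 3 (edgeR adjusted p up to 0.0589), and it was called in 17 of 22 alternatives, with adjusted p up to 0.0916. Lower were the scaffold SYMPK (log2 -0.38) and the decay helicase UPF1 (log2 -0.23). SYMPK was not called after the GC correction (log2 -0.18, edgeR adjusted p = 0.0714) or that for GC content and length (log2 -0.024, edgeR adjusted p = 0.824). UPF1 (edgeR adjusted p = 0.0494) kept its call in 1 of 6 fits without a library and changed direction in 3 of 22 alternatives, and it was called higher after the correction for GC content and length (log2 0.19, edgeR adjusted p = 0.0242). The list had 4 genes higher and 0 lower without PLOD3 siRNA replicate 1, and 5 higher and 1 lower after the GC correction.

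Of 10 tested genes of histone gene transcription, 1 was called higher and 1 lower, with a median log2 fold change of -0.15. Over all genes tested, 16.2% were called higher and 19.3% lower. CCNE2, a cyclin that activates CDK2 at the entry into S phase, rose to 3.57, 3.34 and 3.36 FPKM in PLOD3 siRNA, against 2.34, 1.87 and 2.17 in si NC (log2 0.69, edgeR adjusted p = 0.00552). E2F1, a transcription factor of the same transition, fell to 8.80, 7.87 and 9.02 FPKM in PLOD3 siRNA, against 12.4, 14.1 and 12.4 in si NC (log2 -0.60, edgeR adjusted p = 0.00619). After the GC correction both were still called, CCNE2 at 0.40 and E2F1 at -0.26 on the log2 scale. NPAT had 4.46, 3.88 and 3.53 FPKM in PLOD3 siRNA, against 3.27, 1.80 and 2.73 in si NC. Its groups did not overlap, and the log2 difference of 0.62 did not pass (edgeR adjusted p = 0.0616).

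Of 24 tested histone chaperones and related genes, 6 were called higher and 3 lower, with a median log2 fold change of 0.016. The share called was near the 35.5% over all genes tested (16.2% higher, 19.3% lower). DNAJC9, a chaperone of H3 and H4, rose to 22.3, 21.8 and 21.9 FPKM in PLOD3 siRNA, against 11.1, 9.82 and 10.9 in si NC (log2 1.06, SE 0.0693, edgeR adjusted p = 0.00122). All 3 PLOD3 siRNA libraries were within 1 FPKM of each other and well above si NC. HAT1, which acetylates new H4, rose to 15.5, 15.6 and 14.7 FPKM in PLOD3 siRNA, against 10.4, 8.28 and 9.06 in si NC (log2 0.73, edgeR adjusted p = 0.00353; log2 0.44 after the GC correction, also called). SUPT16H, a subunit of the FACT complex, rose by 0.49 on the log2 scale and HJURP, the chaperone of the centromeric H3, by 0.45. Those that fell were HIRA (log2 -0.27), CABIN1 (-0.55) and UBN1 (-0.80), which are subunits of the HIRA complex that deposits H3.3 outside replication. CABIN1 was called in 6 of 6 fits without a library, HIRA in 4 and UBN1 in 2. Without PLOD3 siRNA replicate 1 or si NC replicate 3 there was 1 lower call in the list, and after the GC correction there were 0. CABIN1 was then at -0.29, HIRA at -0.10 and UBN1 at -0.76 (edgeR adjusted p = 0.0628) on the log2 scale.

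Of 36 tested S phase genes with polyadenylated mRNA, 21 were called higher and 1, E2F1, lower, with a median log2 fold change of 0.28, against 0.00337 for all genes tested. Among all genes tested, 16.2% were called higher and 19.3% lower. The 4 with the smallest p were CCNA2 (log2 0.84), RFC5 (0.59), RRM1 (0.69) and MCM10 (0.76). These lists overlap in CCNE2, E2F1 and a few other genes and were put together with earlier results of these data known.

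**Figure D5:**
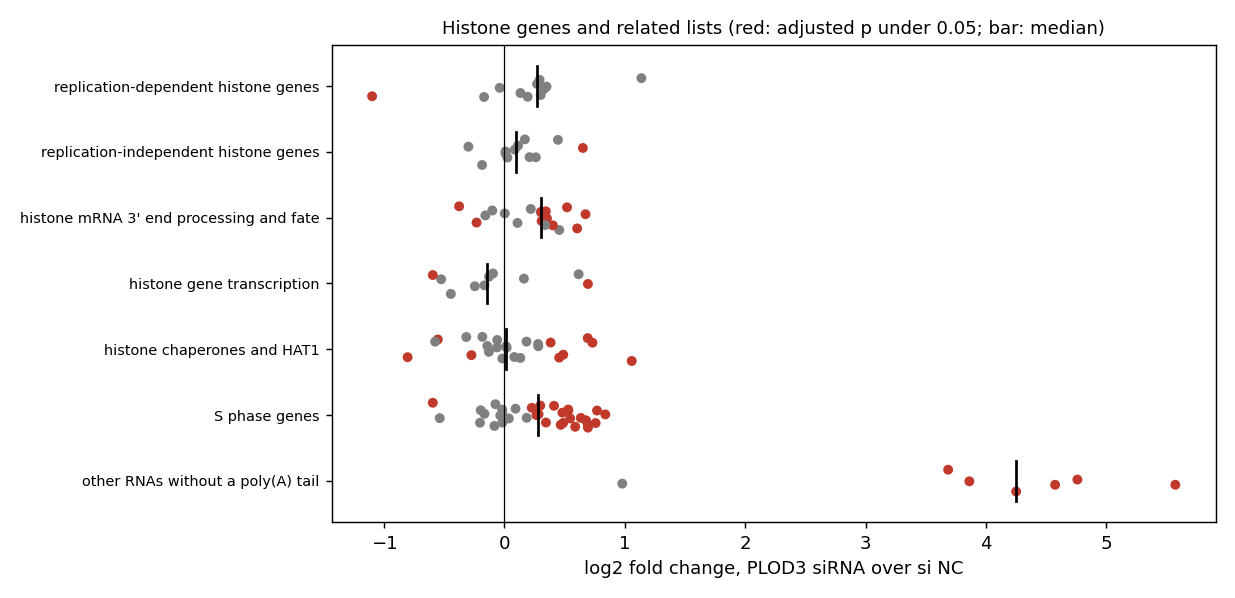
Log2 fold change of PLOD3 siRNA over si NC for genes with a mean of at least 1 FPKM in 7 lists. Each point is a gene, red where the edgeR adjusted p was under 0.05, and the bar is the list's median. The 11 replication-dependent histone genes have 1 red point, H3C6 at -1.10, while S phase genes are mostly red above 0 and the other RNAs without a poly(A) tail lie around 4.25.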

How the data were processed

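RNA-seq of 6 HCT116 samples was analysed from 1 deposited table of 60612 genes and 12 value columns, with 0 columns left unmapped. The authors deposited FPKM, with 0.0001 for a gene without reads, and estimated counts as whole numbers, per the file headers. Cutadapt 1.9, HISAT2 2.0.4 and StringTie 1.3.4d are named in the submitters' processing notes. For the build, annotation, strand setting and counting method, the sources used here give nothing, and without a strand setting reads of overlapping genes on opposite strands cannot be told apart. Identifiers and positions matched GRCh38. The ratio of count to FPKM gave the same gene length in every library (median CV 0.0273% over 7068 genes).

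Groups and replicate numbers came from the sample titles. Counts were used as deposited in edgeR 4.0.16 (R 4.3.3): TMM scaling, a minimum mean level of 1 FPKM (12000 genes) and the two-sided quasi-likelihood test, called at a Benjamini-Hochberg adjusted p under 0.05. A minimum of 0.1 FPKM (19840 genes) was also used. Other scalings, filters, corrections for GC content and length, and fits without a library were tried in edgeR, limma 3.58.1 and DESeq2 1.42.0. The fits were tested on simulated counts with known changes of 1 or 2 on the log2 scale, 100 genes each, far fewer than were called in the data. At the minimum of 1 FPKM, 65% of changes of 1 were recovered and 5.42% of calls were false. At 0.1 FPKM these were 34% and 8.55%.

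The members and lists were chosen with earlier results of these data known. Values per library are given for called members and the 4 highest of each type. For lists, called genes are named where 5 or fewer, otherwise the 4 with the smallest p, with SLBP, NPAT, H2AX, H3-3A, H3-3B, H2AZ1, RN7SK and RMRP in any case. All 6 called RNAs without a poly(A) tail are also named. Lists and levels got no test as a group. Stem-loops, polyadenylation signals and shared 75-base stretches were searched in GENCODE transcripts and promoter motifs in RefSeq promoters.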

Additional observations from a re-analysis of the deposited data

How the results depend on the processing

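H3C6 was called lower in every alternative that tested it, and with the minimum at 5 FPKM, where 3 members were tested and H3C6 was not, 0 members were called lower. Members called higher (0) numbered 1 with quantile-normalized FPKM, log2(FPKM + 1), log2(FPKM + 0.1), log2(TPM + 1), the GC correction and without a count filter, and 4 at 0.1 FPKM and with filterByExpr; with a library left out they numbered 0 to 1. At 0.1 FPKM the 4 became 2 with the GC correction, 2 with GC and length and 6 with DESeq2. They numbered 4 with counts divided by 4, and 0 to 3 with a library left out. These combinations were chosen after seeing the data, and the shares of all genes called in them are not given. All genes called higher (1945) numbered 1192 at 5 FPKM, and lower (2319) 1354 at 5 FPKM, 1460 with TPM and 1542 with GC and length; with a library left out they numbered 1083 (without PLOD3 siRNA replicate 1) to 1651 higher and 1509 (without si NC replicate 3) to 2011 lower. Scaling moved the median of all genes by at most 0.10 (log2). Same-numbered libraries deviated with correlations of 0.0486, -0.0107 and -0.023, so the numbers do not pair them; with the replicate block 0 members were higher and 1 lower (1471 and 1834 genes), and with the block and GC correction 1056 and 1211 genes. With the block SLBP lost its call (edgeR adjusted p = 0.0577), and with the block and GC correction the 3′ processing list had 1 gene higher and 1 lower. Directions of genes not called turned for H2AC6 (-0.0751 GC, -0.175 GC and length, -0.0849 block with GC, -0.0255 to 0.255 with a library left out), H2BC12 (0.0641 TPM, 0.258 GC, 0.268 block with GC, -0.126 to 0.0365 with a library left out), H2BC5 (-0.308 to 0.0207 with a library left out), H4C11 (-0.0274 to 0.486 with a library left out), H2AX (0.215 GC, 0.115 GC and length, 0.221 block with GC) and H3-3A (-0.0813 quantile, -0.0175 at 5 FPKM, -0.223 GC, -0.291 GC and length, -0.200 block with GC, -0.110 to 0.125 with a library left out), all on the log2 scale. The causes were not tested. Few reads limit many members under 1 FPKM. That minimum also depends on gene length. H2BC15, below it, had estimated counts of 854 over all libraries, against 224 for H4C11, which was tested.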
